A study of Mus musculus with 2 samples.

Results

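CtBP2 sites without raised input were sought in MIN6 cells, a mouse insulinoma line that serves as a beta cell model. Members were chosen by their read counts: the genome was cut into fixed 1 kb bins, and a bin was a member when it held at least 25 distinct reads of the anti-CtBP2 chromatin immunoprecipitation (ChIP) library and at most 8 distinct reads of the input library. A distinct read is 1 read per chromosome, 5 prime end and strand. The rule gave 502 member bins of 2557300 bins examined on chromosomes 1 to 19 and X (0.0196%), and joining adjacent bins gave 491 member regions. The data were 1 ChIP and 1 input library of the same line in regular culture, fixed with 1% formaldehyde for 10 min, with no genetic change or treatment named in the labels. Neither library had a replicate, so read counts below describe these libraries alone, and their intervals (95% Poisson for counts, 95% Wilson for shares) cover counting error only. No IgG library or library from cells without CtBP2 was analysed here. Positions are 1-based on mouse build mm9, and the sites are named by position because no annotation or sequence of build mm9 was used here.

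CtBP2 is a co-repressor that binds NAD(H). It has no strong sequence preference of its own and is brought to DNA by transcription factors that carry a short CtBP-binding motif, together with histone deacetylases, histone methyltransferases and the demethylase LSD1. Input is sheared, crosslinked chromatin that was not precipitated. It is known to be uneven, with more fragments from open chromatin such as active promoters and enhancers, and it serves as the background against which ChIP reads are read. A DNA fragment is sequenced from its ends, so around a bound site the 5 prime ends of plus-strand reads lie to the left of the site and those of minus-strand reads to its right.

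The name given to these sites did not hold for most of them. Of the 491 member regions, 293 (59.7%, interval 55.3 to 63.9%) lay directly beside a bin that also held 25 or more ChIP reads but had 9 or more input reads, called a dense neighbour from here on. In 267 of those 293 regions the centre of the read pile, taken as the 200 bp with the most ChIP reads within 500 bp of the region, lay outside the region. The other 198 regions stood alone, and 192 of them held their own pile centre. When a 1 kb window was instead centred on each pile, 131 of the 491 regions (26.7%, 23.0 to 30.8%) still had at least 25 ChIP and at most 8 input reads. These were 128 of the 198 that stood alone and 3 of the 293 with a dense neighbour. For a pile centred in a dense neighbour, the window took in a large part of a bin that had 9 or more input reads by definition. The 3 of 293 was therefore largely set in advance. The centring was chosen after the values were seen.

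Bins with many ChIP reads and little input were rare at every ChIP level and were absent among the deepest bins. Dense bins, those with at least 25 ChIP reads, made up 1.21% of all bins (30916 bins). Of these, 1.62% had 8 or fewer input reads, against 86.9% of the bins with under 25 ChIP reads. The share of members was 4.87% (4.44 to 5.34%) of bins with 25 to 49 ChIP reads, where the median input was 21 reads. It was 0.843% (0.657 to 1.08%) of bins with 50 to 99 ChIP reads, where the median input was 29. Among bins with 100 to under 200 ChIP reads it was 5 of 5584 bins (0.0895%), and among the 9143 bins with 200 or more it was 0, with a median input of 71 reads and an upper interval bound of 0.042%. These values chose the members and are given as a description.

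**Figure D1:**
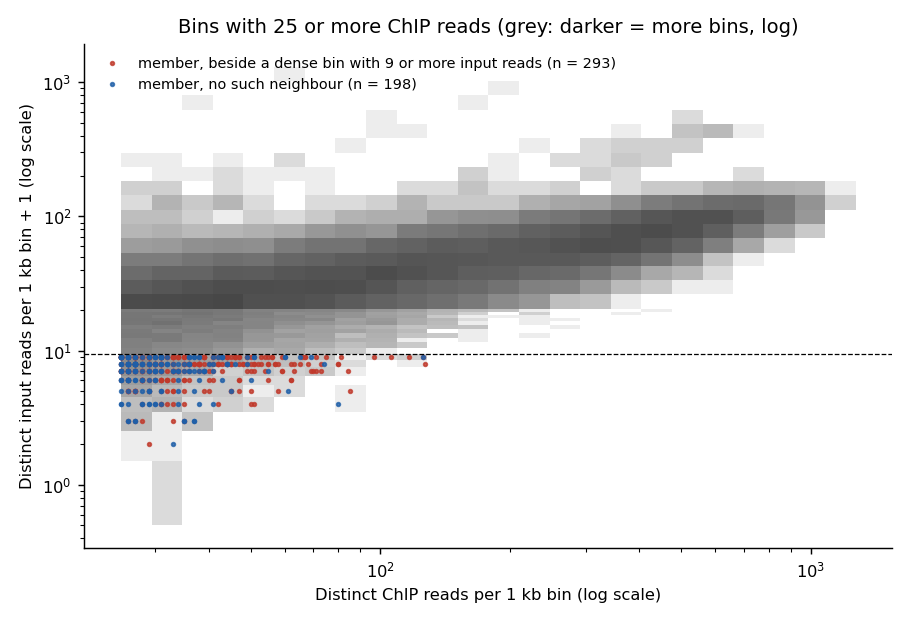
Distinct ChIP reads against distinct input reads plus 1 for 1 kb bins with 25 or more ChIP reads, both on log scales. Grey cells count bins (darker for more bins, log scale), the dashed line is the limit between 8 and 9 input reads, and points are the densest bin of each member region, red for the 293 with a dense neighbour and blue for the 198 without. Members reach at most 127 ChIP reads, while the grey cells run on to over 1000 with rising input.

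Members were close to both limits. The densest bin of a member region held a median of 31 ChIP reads (interquartile range 27 to 40, highest 127) and 7 input reads. Just inside the ChIP limit there were 41 bins with 25 ChIP reads and 8 or fewer input reads, and just outside it 48 bins with 24. Just inside the input limit 149 dense bins had 8 input reads, and just outside it 213 had 9, with median ChIP counts of 31 and 32. All member bins together held 18264 ChIP reads (0.216% of the library) and 3170 input reads (0.0255%), a mean of 36.4 and 6.32 per bin. The remaining 30414 dense bins had a mean of 175 ChIP and 44.9 input reads.

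Of the 12 member regions with the most ChIP reads in a bin, 10 had a dense neighbour, and in each of these the pile centre lay in the neighbour. At chr13:51889001-51890000 that centre was right at the border. The densest 200 bp there held 134 ChIP reads, and a 200 bp window centred just inside the region held 133. Whether the reads of the 10 regions belong to sites in their neighbours was not tested. The first was chr8:35210001-35211000 with 127 ChIP reads (interval 106 to 151) and 7 input reads. Of its ChIP reads, 126 were on the minus strand and 1 was on the plus strand, and the bin to its left held 537 ChIP and 70 input reads while the bin to its right held 4 and 2. The next region of this kind, chr3:35832001-35833000, held 126 ChIP and 8 input reads, with 0 plus-strand reads and a left neighbour of 766 ChIP and 87 input reads. The same pattern on the opposite side was seen at chr15:100057001-100058000, where 79 of 80 ChIP reads were on the plus strand and the right neighbour held 883 ChIP and 75 input reads. Across the 10 regions, 92.9% to 100% of ChIP reads were on the strand that points into the neighbour. Those neighbours held 163 to 883 ChIP and 23 to 90 input reads, against at most 4 ChIP reads on the other side.

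The remaining members of this group were on chromosomes 7, 2, 13, X, 11 and 10. They lay at chr7:128851001-128852000 (117 ChIP and 8 input reads), chr2:37308001-37309000 (106 and 8) and chr13:23622001-23623000 (97 and 8). Further along were chrX:71331001-71332000 (85 and 4), chr13:51889001-51890000 (84 and 6), chr11:96326001-96327000 (81 and 8) and chr10:79793001-79794000 (80 and 7). A 1 kb window centred on the pile of any of the 10 regions held 27 to 75 input reads.

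The 2 regions of the 12 that stood alone differed in shape. At chr8:125365001-125366000 there were 80 ChIP reads (interval 63.4 to 99.6), 40 on each strand, and 3 input reads (0.619 to 8.77), with 0 ChIP reads in the bin to the left and 2 in the bin to the right. Its pile was compact, with 56 ChIP reads in the central 200 bp, and it lay 28 kb from the closest other dense bin. At chr4:10621001-10622000 there were 126 ChIP reads, 64 plus and 62 minus, and 8 input reads, but only 40 of the ChIP reads fell in any 200 bp. Reads there covered the whole bin, and the bins beside it dropped to 9 and 5 ChIP reads.

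**Figure D2:**
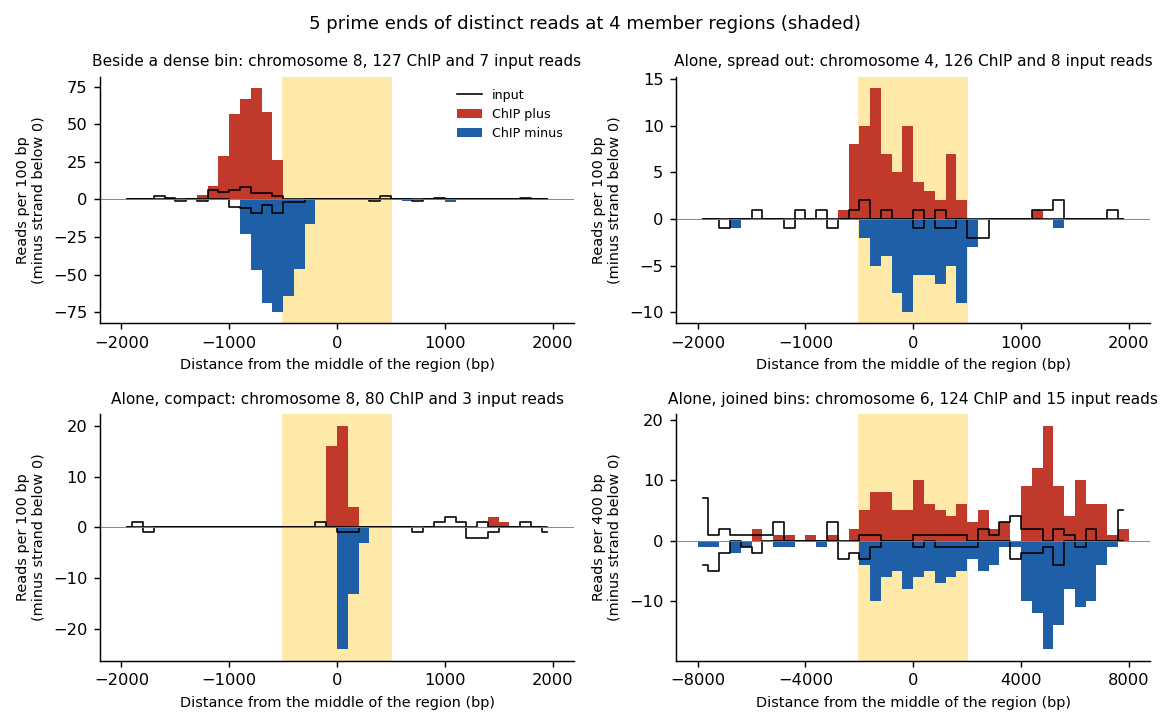
Counts of 5 prime ends of distinct reads by distance from the middle of 4 member regions, with plus-strand ChIP reads upward in red, minus-strand ChIP reads downward in blue, and input of each strand as a black line. The shaded span is the member region, and counts are per 100 bp or, for the joined bins, per 400 bp. The region with 127 ChIP reads holds only the minus-strand side of a pile centred to its left, the region with 80 holds a whole compact pile, and the 2 others hold reads spread over the region.

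The strand of the reads differed between most regions with a dense neighbour and most of those without, and the rule had used neither strand nor neighbour. Of the 293 regions, 151 had the dense neighbour on the left only, 140 on the right only and 2 on both sides. The median share of plus-strand reads was 3.23% with the neighbour on the left, 96.5% with it on the right and 50% (interquartile range 44.0 to 56.0%) in regions that stood alone. The 2 kinds overlapped. A plus-strand share of 35 to 65% was found in 31 of the 291 regions with a neighbour on 1 side and in 151 of the 198 that stood alone. At least 90% of ChIP reads were on the strand pointing into the neighbour in 218 of those 291. By contrast, 9 of the 198 regions that stood alone had 90% or more of their reads on either strand. So had 38 of 5192 joined regions of dense bins with 9 or more input reads and a densest bin of 25 to 49 ChIP reads. Adjacent bins of that kind were joined, so an edge bin was merged with its deeper neighbour. The 38 of 5192 is therefore no comparison for edge bins, and no conclusion is drawn from it.

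**Figure D3:**
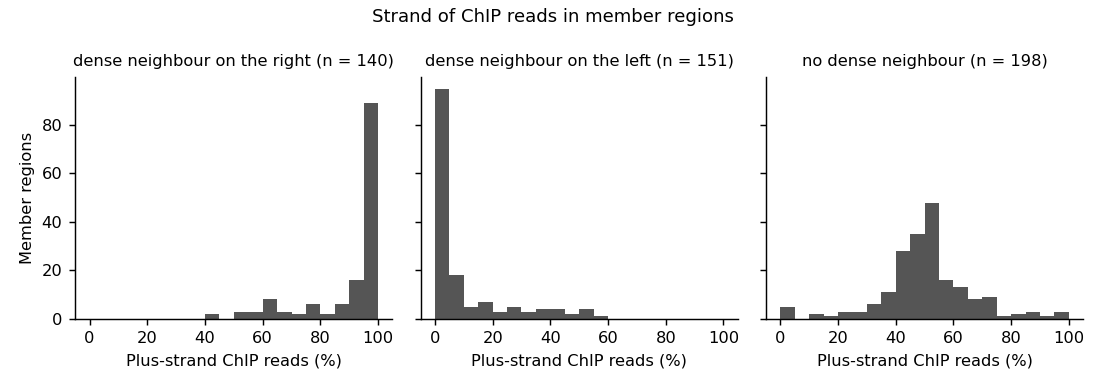
Histograms of the share of ChIP reads on the plus strand, in steps of 5%, for member regions with a dense neighbour on the right (n = 140), on the left (n = 151) and with none (n = 198). The first group piles up near 100%, the second near 0%, and the third around 50%.

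Reads of regions with a neighbour on 1 side were also crowded against the shared border. A median of 94.3% of their ChIP reads lay in the 250 bp next to it. The neighbours had medians of 245 ChIP and 47 input reads, and the bin on the far side had a median of 1 ChIP read. Averaged over these 291 regions, ChIP 5 prime ends on the strand pointing into the neighbour rose from 0.928 per kb in the 100 bp farthest from the border to 235 per kb in the last 100 bp before it, and reached 330 per kb just beyond it. Ends on the opposite strand were at 14.4 per kb in the last 100 bp before the border and peaked at 317 per kb between 200 and 300 bp beyond it. Input rose along the same way, from 1.89 per kb in the farthest 100 bp to 29.1 per kb next to the border and 78.6 per kb between 200 and 300 bp beyond it.

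**Figure D4:**
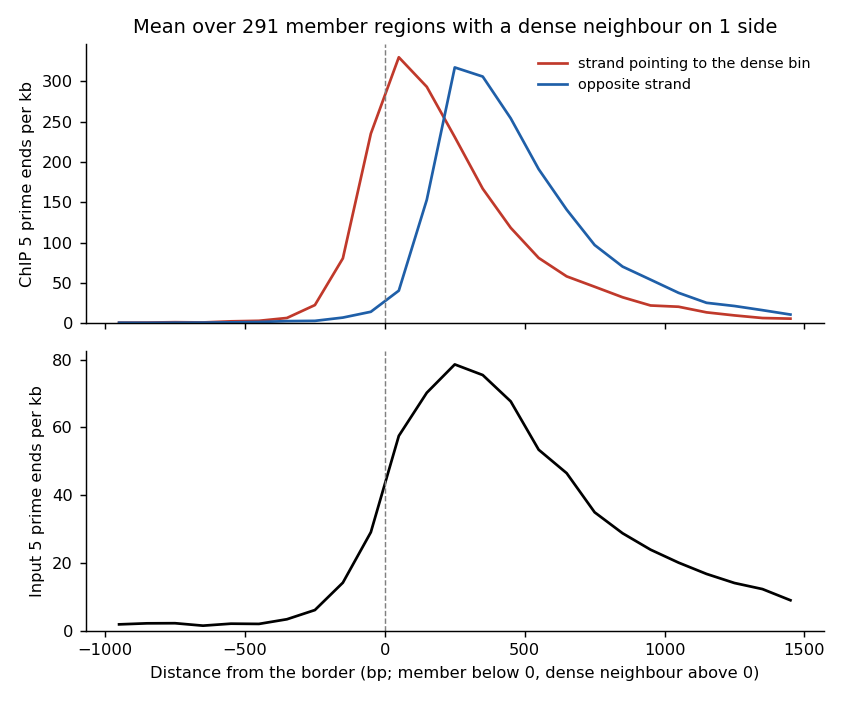
Mean density of 5 prime ends per kb in steps of 100 bp around the border between a member region (below 0) and its dense neighbour (above 0), over 291 regions turned so that the neighbour is on the right. The upper panel shows ChIP reads of the strand pointing into the neighbour (red) and of the opposite strand (blue), and the lower panel shows input. All 3 curves rise across the border, and the red curve rises first. Higher input beyond the border was set in advance by the input limits of member and neighbour.

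The distance between plus and minus ends of a pile, which follows the fragment length, was 204 bp in regions that stood alone, close to the 220 bp of the whole ChIP library and the 225 bp of dense bins with more input. The top of the curve for regions that stood alone was broad, so 204 bp is approximate. Minus ends per 1000 plus ends were 49.7 at 170 bp, 50.7 at 210 bp and 49.2 at 230 bp. No clear distance was found over all member regions or in those with a dense neighbour. Their highest values, at 346 and 364 bp, were part of a plateau that ran to the end of the search at 400 bp. Over all members, minus ends per 1000 plus ends were 185 at 310 bp, 188 at 346 bp and 181 at 400 bp, and in regions with a dense neighbour they were 295 at 364 bp and 289 at 400 bp.

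In regions that stood alone, input still rose at the pile centre although the bin as a whole held 8 reads or fewer. For the 192 that held their own centre, input was 16.2 reads per kb (interval 15.2 to 17.2) within 150 bp of it, 4.0 (3.67 to 4.36) from there to 500 bp, and 5.33 (5.10 to 5.57) at 2 to 3 kb. ChIP was 104, 7.81 and 3.96 reads per kb over the same distances. In the 131 regions that kept both limits when centred, input was 12.8 (11.7 to 14.0) at the centre against 2.87 and 4.92 farther out. A further 53 of the 192 were picked out for 5 or fewer input reads in their densest bin. Even there, input was 9.56 (8.10 to 11.2) at the centre against 3.83 (3.47 to 4.22) at 2 to 3 kb. The limit on input acts on the bin total and so lowers all values inside the bin.

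Input outside the regions was not part of the rule. In bins 1 to 2 kb away with under 25 ChIP reads, it averaged 4.91 reads per kb (4.77 to 5.06) around member regions, 6.14 (6.12 to 6.16) around dense bins with more input, and 4.35 (4.34 to 4.35) over all bins with under 25 ChIP reads. Around members that stood alone the mean was 4.08 and around those with a dense neighbour it was 5.4. ChIP reads in these flanks averaged 1.90 per kb for members, 1.67 for dense bins with more input and 1.2 over all such bins.

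Most regions that stood alone were narrow piles. At least 75% of the ChIP reads within 500 bp of the pile centre lay within 100 bp of it in 129 of the 198, and the median share was 80% (69.1 to 87.8%), against 71.0% (55.8 to 83.3%) in joined dense bins with more input and a densest bin of 25 to 49 ChIP reads. The densest 200 bp held a median of 26 ChIP reads in both sets. From 150 to 500 bp around pile centres that lay inside their region, ChIP was 7.81 and 13.4 reads per kb. The second set was joined bins with more input, so whether the piles themselves differed in width was not tested. The densest bin of regions that stood alone held a median of 29 ChIP reads, and 12 of these regions reached 50 or more. Among the regions that kept both limits when centred, the pile with the most reads in 200 bp after the site on chromosome 8 was at chr1:174074001-174075000, with 28 ChIP and 5 input reads in the bin. It had no dense neighbour, yet 27 of its 28 reads were on the plus strand, and its pile of 49 reads was centred in the next bin, which held 23 ChIP and 5 input reads. It was followed by chr11:99793001-99794000 with 55 ChIP and 6 input reads and 46 reads in its central 200 bp. The site at chr5:27536001-27537000 had 50 ChIP and 5 input reads, again with 46 in the central 200 bp. That at chr3:119890001-119891000 had 37 ChIP and 2 input reads in the bin, and its pile ran on into the next bin, which gave 46 ChIP and 4 input reads in the centred 1 kb. These sites were chosen after their values were seen.

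A small group of 15 regions that stood alone was spread out, with 30.0% to 48.3% of reads within 100 bp of the pile centre. These regions held 26 to 126 ChIP reads, and their reads were not confined to 1 strand (34.6% to 73.1% on the plus strand). The widest member region of all was among them. It was chr6:142247001-142251000, where the 4 bins held 34, 30, 32 and 28 ChIP reads and 6, 0, 3 and 6 input reads. The bin before it held 3 ChIP reads and the bin after it 20, and 62 reads lay on each strand. After the bin with 20 ChIP reads and another with 7 came a denser stretch with 62 ChIP and 9 input reads at chr6:142253001-142254000, 53 and 7 in the next bin and 41 and 3 in the one after that, the last 2 of which formed the member region chr6:142254001-142256000. Beyond it, ChIP fell to 10 and then 2 reads per bin.

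The next widest region, chr7:149863001-149866000, had the same flat form. Its 3 bins held 26, 35 and 31 ChIP reads with 5, 2 and 0 input reads, and the bins on either side held 0 and 2 ChIP reads. Plus and minus reads were nearly equal, at 45 and 47. No 200 bp within this tract or that on chromosome 6 held more than 14 ChIP reads, whereas the compact site on chromosome 8 held 56. A further 6 regions were 2 bins wide, and the 3 of them with the most ChIP reads are described here. The first was chr6:142254001-142256000 above, and in the 2 others a bin border ran through a single pile. At chrX:45976001-45978000 there were 90 ChIP and 15 input reads in 2 bins, with 78 of the ChIP reads in 200 bp. At chr3:89492001-89494000 there were 68 and 13, with 60 in 200 bp. In 1 kb centred on these piles, input was 13 and 11 reads, above the limit. Only 8 of the 491 regions were wider than 1 bin.

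The lowest input counts occurred in both kinds of region. There were 17 member bins with 2 or fewer input reads, of which 6 lay beside a dense bin with more input and 11 did not. Only 2 bins held 0 input reads, a count that does not show input to be absent at this depth. Both belonged to the flat tracts on chromosomes 6 and 7 (chr6:142248001-142249000 and chr7:149865001-149866000). A single input read was found at chrX:69515001-69516000, a spread-out region with 33 ChIP reads, and at chrX:8778001-8779000, where 29 ChIP reads lay beside a bin with 241 ChIP and 48 input reads. Few deposited reads were hidden by keeping 1 per position in the input, where member bins held 1.11 reads per position.

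Repeated ChIP reads did not enter the counts, since each position counted once on each strand. Member bins held 34640 deposited ChIP reads, or 1.90 per position, against 2.59 in dense bins with more input and 1.58 in bins with under 25 ChIP reads. Regions that stood alone had a median of 1.62 reads per position and those with a dense neighbour 2. Joined dense bins with more input and a densest bin of 25 to 49 ChIP reads had 1.64. The most copies of 1 position in any member region was 15.

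Members were spread over all 20 chromosomes, with a higher share on X. On X, 46 of 1111 dense bins were members (4.14%, 3.12 to 5.48%), against 456 of 29805 (1.53%, 1.40 to 1.68%) on the autosomes. The difference was present at like ChIP depth, with 9.46% (6.94 to 12.8%) against 4.66% (4.23 to 5.13%) of bins with 25 to 49 ChIP reads. Chromosome 13 followed with 34 of 1066 (3.19%, 2.29 to 4.42%), and chromosome 16 was lowest with 7 of 951 (0.736%, 0.357 to 1.51%). In bins with under 25 ChIP reads, these 2 chromosomes with the highest shares had the lowest mean input of all chromosomes, 3.84 reads per kb on 13 and 3.94 on X, against 4.37 over autosomes. The other chromosomes did not follow that order. Chromosome 16, with the lowest share, had 4.22 reads per kb, chromosome 3, with the next share after 13 (2.27%), had 4.50, and chromosome 4, with the highest input (4.64), had a share of 1.845%. The share of bins with under 25 ChIP reads that had 8 or fewer input reads was 85.95% on X, below the 87% of autosomes. Among dense bins, median input was 25 reads on X, 32 on 13 and 36 on 16, against 37 on autosomes. Their median ChIP count was 68, 102, 103 and 94 in that order. These counts were used by the rule. The part of input depth in the shares was not tested. Of the 43 member regions on X, 14 stood alone (32.6%) and 8 kept both limits when centred, against 184 of 448 (41.1%) and 123 on the autosomes.

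**Figure D5:**
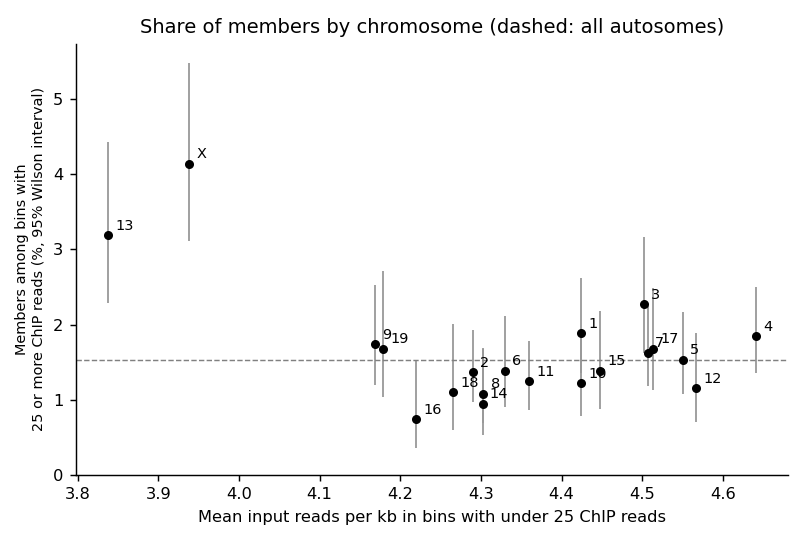
Share of members among bins with 25 or more ChIP reads, with 95% Wilson intervals, against the mean input reads per kb in bins with under 25 ChIP reads, 1 point per chromosome. Chromosomes 13 and X combine the lowest input, 3.84 and 3.94 reads per kb, with the highest shares, 3.19% and 4.14%. The dashed line marks the 1.53% of all autosomes.

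Members were mostly far from each other and only sometimes far from other dense bins. The nearest other member lay a median of 1311 kb away, and 4 of the 491 regions had one within 10 kb. Regions that stood alone lay a median of 28 kb (9 to 83.3 kb) from the closest dense bin, and joined dense bins with more input lay 29 kb (9 to 75 kb) from the closest other one. The 1 Mb stretch with the most members, 79 to 80 Mb of chromosome 10, held 6, and all 6 had a dense neighbour among the 121 dense bins of that stretch. At 99 to 100 Mb of chromosome 11 there were 3 members, and all 3 stood alone.

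Which regions were members moved with the position of the grid. With the grid moved by 500 bp the number of regions changed little, from 491 to 564, but only 90 of the 491 (18.3%, 15.2 to 22.0%) overlapped a member of the moved grid. The share was 87 of 198 for regions that stood alone and 3 of 293 for those with a dense neighbour. Of the others, 353 then met the ChIP limit but not the input limit, and 48 fell below the ChIP limit. A grid moved by 250 bp kept 100 of 198 and 6 of 293. When each read was instead moved toward the centre of its fragment by 110 bp on the first grid, 151 of 198 and 70 of 293 remained members. All 491 regions overlapped a 200 bp window called enriched over local input, but that call used the same reads.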

How the data were processed

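Each deposited BED file lists aligned reads with start and end, and a column that is 1 on every line, so lines were summed as raw read counts. The submitters' processing notes name BWA, SAMtools 0.1.19, bedtools 2.17.0 and build mm9. Read filtering and placement of repeated matches are not given in the sources used here. The ChIP library held 34890624 reads of 33 to 38 bp and input 20896067. Keeping 1 per position left 8465978 (4.12 deposited reads per position) and 12441172 (1.67) on chromosomes 1 to 19 and X, with the deep bins left out below still included.

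Bins of 10 kb with 4200 or more input reads (26) and bins in 10 kb without input were left out. Piles were located after moving 5 prime ends by 110 bp, from strand cross-correlation (80 to 400 bp). Windows of 200 bp were called by a Poisson test against whichever was highest of mean ChIP depth and input (over 1, 5 and 10 kb, scaled by 0.680), at a Benjamini-Hochberg adjusted p of 0.01 and 3-fold. The scripts (Python 3.11.15, NumPy 2.4.6, SciPy 1.17.1, pandas 2.3.3, matplotlib 3.10.9) were tested on simulated data. Members and lists were chosen with earlier results of these data known. The named regions are the 12 with most ChIP reads in a bin and 5 by width, with the 6 tied at 2 bins ordered by ChIP reads and 3 of them kept. Gene-based lists, distance to genes, base composition and motifs need an annotation and sequence of build mm9 and were not used here. No test between groups was made, and alternatives are listed below.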

Additional observations from a re-analysis of the deposited data

How the results depend on the processing

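No paired analysis was possible because there was a single library of each kind. Of 83 values under other settings, 39 stayed within 1.5 times the main count, the main counting interval or, for the strand distance (346 bp), 20 bp, and 44 did not. Member bins (502) and regions (491) numbered 1260 and 1229 with all deposited reads, 860 and 844 with at least 20 ChIP reads, 188 and 186 with at least 35, 128 and 125 with at most 5 input reads, 1724 and 1687 with at most 12, and 1228 and 1186 with bins of 500 bp. For bins of 500 bp both limits were lowered about in proportion to the bin size. Windows centred on the piles, added later, gave 131 regions. The share of members (1.62%) was taken among the bins that met the ChIP limit of each setting. It was 3.35%, 2.51%, 0.713%, 0.414%, 5.58% and 2.37% in that order of settings. With reads moved to the fragment centre it was 1.32%, and with the grid moved by 500 bp 1.84%.

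The share of regions with a dense neighbour (59.7%) was 55.1% with all reads, 47.8% with moved reads, 68.3% at 35 ChIP reads, 55.2% at 5 input reads and 66.4% with bins of 500 bp. Neighbours were defined by the limits of each setting. Flank input (4.91 reads per kb) was 5.19 with all reads, 5.31 and 5.11 with grids moved by 500 bp and, added later, 250 bp, 5.24 at 35 ChIP reads, 5.57 at 12 input reads, 5.2 with bins of 500 bp and 6.89 with flank bins of any ChIP count. The strand distance was 264 bp with moved reads, 308 bp with the grid moved by 500 bp and 317 bp at 12 input reads. The main value lies on a plateau, so these differences in strand distance carry little. Reads per position (1.90) were 2.02 with moved reads, 1.84 and 2.05 at 20 and 35 ChIP reads, 1.87 and 1.94 at 5 and 12 input reads and 1.73 with bins of 500 bp. The overlap with called windows (100%) was 92.5% with all reads and 98.1% with bins of 500 bp. Dropping the mask of deep bins moved none of these 8 results. With all reads, counts rise more for ChIP than for input. Deposited reads per position were 1.90 in ChIP and 1.11 in input in member bins. They were 2.59 and 1.2 in dense bins with more input, and 1.58 and 1.1 in bins with under 25 ChIP reads. The cause of the differences between settings was not tested. Settings for distance to genes and base composition were not run.

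A limit of 8 input reads is not far above the background mean of 4.35 per kb, so a single bin at this depth cannot tell flat input from input raised a little.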
